A study of Sus scrofa with 2 samples.

Results

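Uterine gland secretory proteins were described in the endometrium of Yorkshire pigs. The members were 9 genes taken from a list of symbols: ACP5, TF, LTF, RBP4, CLU, GPX3, CXCL14, SPP1 and FOXA2. They are 9 of the 11071 genes to which a row of the deposited table could be matched through its RefSeq accession, and they are listed in 13 rows, which were summed per gene. The samples (YK18) came from 2 Yorkshire pigs at day 18 of pregnancy, called pig 1 and pig 2 here after the replicate numbers of the libraries, with 1 RNA-seq library per pig. The pigs were artificially inseminated, came from 1 commercial herd and were fed alike, and the uterine horns were flushed before the endometrium was taken. No treatment or genotype is given, and no group other than YK18 was analysed here. The 2 libraries therefore show levels and the spread between 2 pigs, and no effect of a condition. A difference between pigs, between pieces of tissue or between libraries cannot be told apart.

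Uterine glands are tubes of epithelium in the endometrial stroma that secrete a protein-rich fluid called histotroph. In the pig the placenta does not invade the uterine wall, so the conceptus depends on histotroph for iron, retinol and other nutrients throughout pregnancy. Progesterone drives this secretion, and FOXA2, a transcription factor of glandular epithelium, is needed for glands to form in the mouse. The secreted members fall into carriers of iron or retinol (ACP5, TF, LTF and RBP4), a protein chaperone and an antioxidant enzyme (CLU and GPX3), and signals to cells (CXCL14 and SPP1).

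Levels are RPKM, the reads of a transcript per kilobase of the length used for it and per 1000000 reads of the library. RPKM values rise in steps of 1 read, and from these steps totals of 7466979 reads for pig 1 and 7023108 reads for pig 2 were worked out. The same steps gave the reads behind each gene as the smallest whole numbers that were possible. All intervals below are 95% exact (Clopper-Pearson) intervals on these reads. They cover counting error only, because amplified reads are not independent molecules.

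CLU was the most abundant of the 9 transcripts in both pigs, and SPP1 was listed at 0 in both. The 4 highest, CLU, TF, GPX3 and CXCL14, held 97.1% of the members' summed RPKM in pig 1 and 97.3% in pig 2. The members together held 0.203% of all listed RPKM in pig 1 and 0.338% in pig 2. A total of 8 members were above 0 in both libraries, and 7 averaged 1 RPKM or more.

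**Figure D1:**
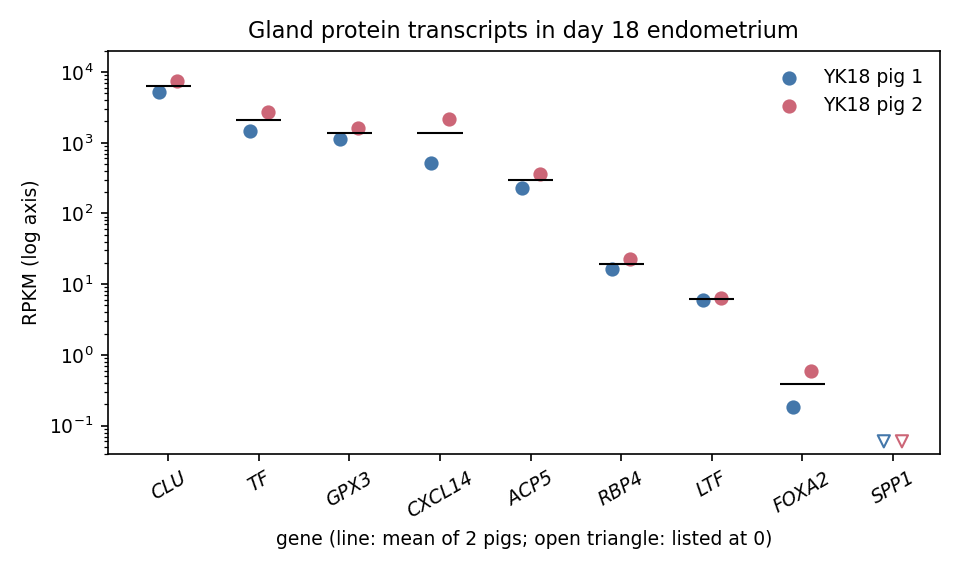
RPKM of each gene (log axis) in YK18 pig 1 and pig 2, with a line at the mean of the 2 pigs and open triangles for values listed at 0. CLU lies highest at 5289 and 7542 RPKM, CXCL14 shows the widest gap between the pigs, at 522.3 and 2200 RPKM, and SPP1 is listed at 0 in both.

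ACP5 encodes uteroferrin, the purple acid phosphatase that carries iron from the glands to the conceptus. It was at 232.7 RPKM in pig 1 and 356.4 RPKM in pig 2, from 311 and 448 reads. The mean was 294.5 ± 87.5 RPKM (SD, n = 2). ACP5 stood at percentile 73.8 of the 6476 genes with a mean of at least 1 RPKM in pig 1 and at percentile 80.0 in pig 2. Its level was thus lower than that of CLU, which was 22.7 times that of ACP5 in pig 1 and 21.2 times in pig 2.

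TF is the symbol of transferrin, the iron carrier of plasma. The annotation gives this symbol to 2 genes, and the deposited table lists 1 row for each. Gene 396996, row NM_001244653.1, was listed at 0 in both libraries. Gene 396845, row NM_213847.1, was at 1481 RPKM in pig 1 and 2704 RPKM in pig 2, from 1504 and 2583 reads. Its synonym in the annotation is PICA, the name of the porcine inhibitor of carbonic anhydrase, a relative of transferrin that binds carbonic anhydrase. The whole value of the symbol, 2093 ± 865 RPKM (SD, n = 2), therefore comes from the row with the synonym PICA. Whether the counting divided or left out reads shared by these related genes was not tested, so the value is uncertain as a measure of transferrin. In what follows, TF stands for the sum of both rows.

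LTF encodes lactoferrin, an iron-binding antibacterial protein of milk, mucosal secretions and neutrophil granules. It was at 5.91 RPKM in pig 1 and 6.28 RPKM in pig 2, with 3 reads in each. The reads were equal, and the higher RPKM in pig 2 follows from its smaller library total. RBP4, the carrier of retinol, was at 16.3 RPKM in pig 1 and 22.8 RPKM in pig 2, from 19 and 25 reads. The mean was 19.6 ± 4.60 RPKM (SD, n = 2), at percentile 37.9 in pig 1 and 40.2 in pig 2. The level of ACP5 was 14.3 times that of RBP4 in pig 1 and 15.6 times in pig 2.

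CLU encodes clusterin, a secreted chaperone that binds misfolded proteins and lipids. It was at 5289 RPKM in pig 1 and 7542 RPKM in pig 2, from 7899 and 10594 reads. The mean was 6416 ± 1593 RPKM (SD, n = 2). By RPKM, CLU ranked 66 of the 6476 genes in pig 1 and 39 in pig 2. It held 61.0% of the members' summed RPKM in pig 1 and 52.2% in pig 2. GPX3, the secreted selenium enzyme that reduces peroxides, was at 1130 RPKM in pig 1 and 1610 RPKM in pig 2, from 2640 and 3540 reads. Its mean was 1370 ± 340.0 RPKM (SD, n = 2), and both pigs placed it above percentile 93.

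CXCL14 encodes a chemokine of epithelia that attracts leukocytes. It was at 522.3 RPKM in pig 1 and 2200 RPKM in pig 2, from 1677 and 6644 reads. The mean was 1361 ± 1186 RPKM (SD, n = 2), so the SD was 87.2% of the mean. The rank of CXCL14 moved from 920 in pig 1 to 192 in pig 2. The other signal, SPP1 or osteopontin, is a matrix protein that binds integrins at the attachment of the conceptus. All 3 of its rows, NM_214023.1, XM_005667004.1 and XM_005667005.1, were listed at 0 in both libraries. If these are counts, and a count of 0 is taken to allow 3 reads, the limit is 0.402 reads per 1000000 in pig 1 and 0.427 in pig 2. In these data 26.6% of the matched genes were listed at 0 in both libraries. These include KRT8, a keratin of simple epithelium, and FTH1 and FTL, the ferritin chains that every cell uses. The value of SPP1 is therefore given only as listed at 0.

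FOXA2 is the only transcription factor of the list and is not itself secreted. One of its 2 rows was listed at 0 and the other was at 0.183 RPKM in pig 1 and 0.584 RPKM in pig 2, from 1 and 3 reads. The ratio of pig 2 to pig 1 was 3.19, with an interval from 0.256 to 167, so the 2 libraries could not be told apart for FOXA2 at this depth. FOXA1, the related factor, had 2 and 1 reads.

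By mean RPKM the order of the members was CLU, TF, GPX3, CXCL14, ACP5, RBP4, LTF, FOXA2 and SPP1. The values of TF and GPX3 overlapped between the pigs, as did those of GPX3 and CXCL14. GPX3 was 2.16 times as high as CXCL14 in pig 1 and 0.732 times as high in pig 2, so these genes changed places between the pigs. All other neighbours in this order had values that did not overlap, and each was in the same order in both pigs.

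The order also rests on the lengths by which the reads were divided, which the deposited table does not list. The smallest lengths that gave whole reads were 200 nt for CLU, 136 nt for TF, 313 nt for GPX3, 430 nt for CXCL14 and 179 nt for ACP5. The lengths used are these or whole multiples of them. At the smallest lengths the reads summed to 90.2% and 90.3% of the library totals, and the listed RPKM summed to 4279448 in pig 1 and 4272865 in pig 2. The lengths used may thus be shorter than whole transcripts, and the RPKM are then larger than values on whole transcripts. In reads, with no division by length, CLU held 56.2% of the members' reads in pig 1 and 44.4% in pig 2. CXCL14 then came to 11.9% and 27.9%, against 6.02% and 15.2% of the summed RPKM. TF came to 10.7% and 10.8%, against 17.1% and 18.7% of the summed RPKM. CLU led on both scales in both pigs, while TF ranked 2 by mean RPKM and 4 by mean reads.

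**Figure D2:**
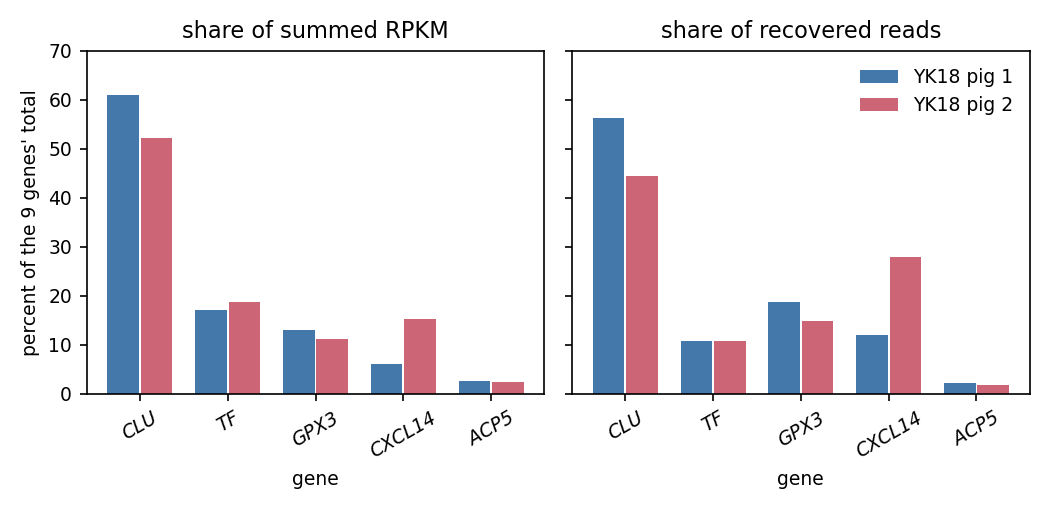
Percent of the 9 genes' summed RPKM (left) and of their recovered reads (right) held by the 5 highest genes, with 1 bar per YK18 library. CLU holds 61.0% and 52.2% of RPKM and 56.2% and 44.4% of reads, and the bar of CXCL14 in pig 2 is 15.2% of RPKM and 27.9% of reads.

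All 8 members above 0 had the higher RPKM in pig 2, and for LTF the reads were equal. Among the 6476 genes with a mean of at least 1 RPKM, 58.0% were higher in pig 2. Of the 7 members in this set, 1 differed at least 2-fold on the log2(RPKM + 1) scale, against 10.7% of the 6476 genes in either direction and 7.49% toward pig 2. That member was CXCL14, with a log2 ratio of 2.07. Its ratio of pig 2 to pig 1 was 4.21, with an interval from 3.99 to 4.45.

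For 5 of these 7 members the interval of the ratio lay above 1, against 18.6% of the 6476 genes. Beside CXCL14 these were TF at 1.83 (1.71 to 1.95), ACP5 at 1.53 (1.32 to 1.78), CLU at 1.43 (1.38 to 1.47) and GPX3 at 1.43 (1.36 to 1.50). The intervals of RBP4, at 1.40 (0.740 to 2.69), and of LTF, at 1.06 (0.142 to 7.94), included 1. These intervals compare 2 libraries, and with 2 pigs they say nothing of how far other pigs would differ. Among the 6476 genes the interval lay above 1 for 1205 and below 1 for 802. More reads narrow an interval, and the 6476 genes were not matched to the members by reads. The 18.6% is therefore not a share for genes of like reads. The median log2 ratio of the 7 members was 0.51, beside 0.07 for the 6476 genes. By log2 ratio CLU, GPX3, RBP4 and ACP5 lay from 0.46 to 0.61, TF was at 0.87, LTF at 0.08 and CXCL14 at 2.07. The wide intervals of RBP4 and LTF do not resolve where these genes lie among the others.

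**Figure D3:**
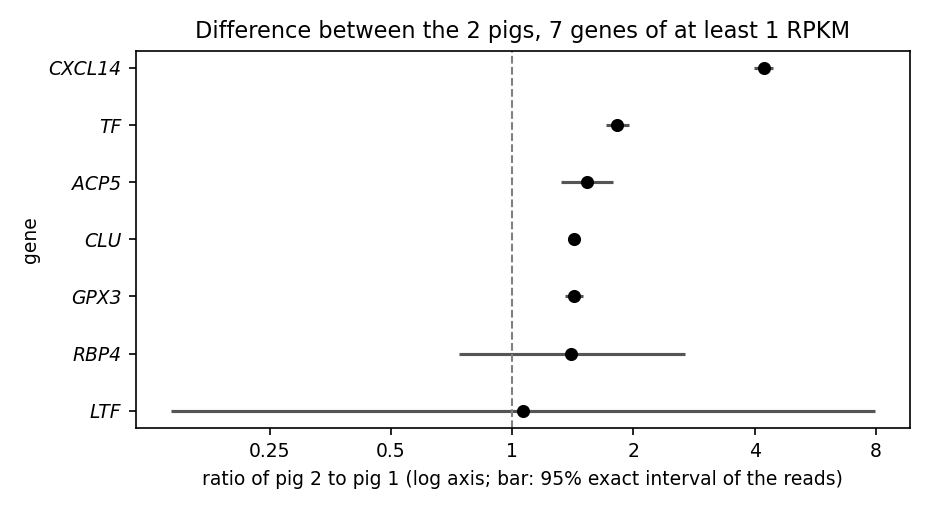
Ratio of pig 2 to pig 1 (log axis) for the 7 genes with a mean of at least 1 RPKM, with 95% exact intervals of the reads and a dashed line at 1. The intervals of CXCL14, TF, ACP5, CLU and GPX3 lie above 1, and those of RBP4 and LTF, with 19 and 25 and with 3 and 3 reads, include it.

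Other products of uterine epithelium were read from a list of 22 genes, of which 20 were listed, 6 were at 0 in both libraries and 13 averaged 1 RPKM or more. Of these 13, 10 were higher in pig 2 and 3 were lower, and the median log2 ratio was 0.40. The interval lay above 1 for 6 of them and below 1 for 1. The highest by mean RPKM was SLPI, an inhibitor of serine proteases, at 2779 RPKM in pig 1 and 4197 RPKM in pig 2. CTSC, a lysosomal dipeptidyl peptidase, was at 2799 and 3388 RPKM, and was above SLPI in pig 1. WFDC2, a small protein of the whey acidic protein family, was at 1167 and 2359 RPKM, a log2 ratio of 1.01. LYZ, the antibacterial enzyme lysozyme, was at 111.5 and 384.4 RPKM, a log2 ratio of 1.78. WFDC2 and LYZ were the genes of this list that differed at least 2-fold, both toward pig 2. WFDC2 fell short of 2-fold when the libraries were scaled by the upper quartile, at 0.98, or by the median ratio, at 0.93, while LYZ was at 1.75 and 1.69. By mean RPKM, SLPI and CTSC were above every member but CLU, and WFDC2 was above every member but CLU and TF.

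Regulators of the glands were read from a list of 12 genes, all listed, of which 10 averaged 1 RPKM or more. In this list 6 were higher in pig 2 and 4 were lower, with a median log2 ratio of 0.20. SOX17, a transcription factor of the glandular epithelium, was at 182.7 RPKM in pig 1 and 231.0 RPKM in pig 2. FGFR2, a receptor for fibroblast growth factors, was at 843.6 and 983.1 RPKM. The progesterone receptor PGR was lower in pig 2, at 530.9 and 434.2 RPKM. STC1, a hormone secreted by uterine glands that acts on calcium and phosphate, moved against the members, at 701.7 RPKM in pig 1 and 63.5 RPKM in pig 2, from 1116 and 95 reads. Its log2 ratio was -3.45. LIF, a cytokine of the implantation period, was at 4.01 and 11.7 RPKM, from 8 and 22 reads.

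Receptors and partners of the members were read from 13 genes, of which 11 were listed and 8 averaged 1 RPKM or more. Of these 8, 3 were higher in pig 2 and 5 were lower, with a median log2 ratio of -0.05, and 2 were higher and 6 lower when scaled by the median ratio. TFRC, the transferrin receptor, was at 21549 RPKM in pig 1 and 21851 RPKM in pig 2. The level of this receptor was above that of every member, and its ratio was 1.01 (0.995 to 1.03). The integrin subunits that bind osteopontin were all above 0 in both pigs. ITGAV was at 8750 and 8275 RPKM, ITGB1 at 1278 and 1267 RPKM, and ITGB5 at 598.9 and 534.5 RPKM. ITGB3 was lower in pig 2, at 630.4 and 341.4 RPKM, and ITGB6 was at 76.8 and 89.4 RPKM. CD44, another receptor of osteopontin, was listed at 0 in both libraries.

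For retinol, TTR, the plasma partner of RBP4, was listed at 0 in pig 1 and was at 28.3 RPKM in pig 2, from 29 reads. STRA6, the cell-surface receptor of RBP4, had 1 read in each library. CRABP2, which binds retinoic acid inside the cell, was listed at 0. Of the genes that store, export or oxidise iron, 6 of 7 were listed and 3 averaged 1 RPKM or more. HMOX1, which frees iron from haem, was at 28.4 and 50.9 RPKM. HEPH, an oxidase of iron, had 9 and 3 reads, and SLC40A1, the iron exporter, had 4 and 1 reads. The median log2 ratio of these 3 genes was -0.99, with HMOX1 toward pig 2 and the others toward pig 1.

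**Figure D4:**
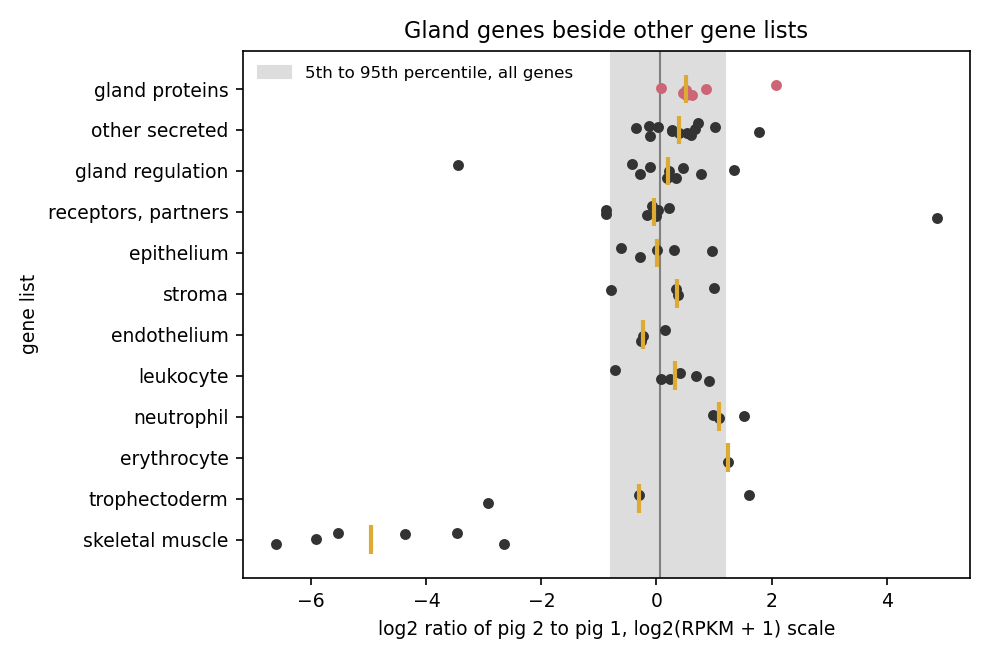
Log2 ratio of pig 2 to pig 1 on the log2(RPKM + 1) scale for genes with a mean of at least 1 RPKM, 1 point per gene and 1 row per list, with the list's median in yellow and the 5th to 95th percentile of the 6476 genes, -0.79 to 1.19, in grey. The gland proteins are at a median of 0.51, the epithelial markers at 0.01, or -0.08 with the libraries scaled by the median ratio, and the skeletal muscle markers at -4.95.

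The labelled tissue was checked against marker genes of the cells it holds. Epithelial markers were present in both pigs. EPCAM was at 5106 and 5128 RPKM, CDH1 at 4834 and 3961 RPKM and KRT18 at 1626 and 1064 RPKM, and KRT8 was listed at 0. KRT19 was higher in pig 2, at 267.8 and 522.1 RPKM, where the smallest possible reads were 6 and 11. CLDN4 was also higher in pig 2, at 136.8 and 169.3 RPKM, with a ratio of 1.24 (1.13 to 1.35). Of 5 epithelial markers with a mean of at least 1 RPKM, 3 were higher in pig 2 and 2 were lower, and the median log2 ratio was 0.01, which turned to -0.08 with the libraries scaled by the median ratio. Their summed level over the 6 listed markers was 11970 RPKM in pig 1 and 10845 RPKM in pig 2. Set against EPCAM within each library, the level of CLU was 1.04 times that of EPCAM in pig 1 and 1.47 times in pig 2. The level of CXCL14 was 0.102 and 0.429 times, that of TF 0.290 and 0.527 times, and that of ACP5 0.0456 and 0.0695 times. These 4 members were higher in pig 2 when set against EPCAM. EPCAM itself was nearly level between the pigs, at a ratio of 1.00 (0.968 to 1.04). Dividing by it therefore left the members' ratios almost as they were and is no separate test of epithelial content. The direction held against EPCAM and not against every epithelial marker. The ratio of KRT19, 1.95, was above those of CLU, TF and ACP5. Its interval, 0.661 to 6.42, rests on 6 and 11 reads, far fewer than the 907 and 1056 of CLDN4 at a lower RPKM. The true reads of KRT19 are therefore probably a large multiple, and its interval is too wide to say whether the pigs differed. In bulk tissue, fewer gland cells and less RNA per gland cell cannot be told apart.

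Markers of other cells also differed between the pigs. HBB, the beta chain of haemoglobin, was at 3549 RPKM in pig 1 and 8431 RPKM in pig 2, while ALAS2, an enzyme of haem synthesis in red cell precursors, was listed at 0. The summed level of the 6 leukocyte markers was 1023 and 1488 RPKM, with 5 higher in pig 2 and 1 lower. The 5 listed neutrophil markers summed to 17.7 and 38.4 RPKM. All 3 of them with a mean of at least 1 RPKM were higher in pig 2, with a median log2 ratio of 1.08. S100A12, a calcium-binding protein of granulocytes, had 13 and 25 reads, S100A8 had 2 and 5 reads, and the granule protease ELANE had 1 and 6 reads. The intervals of S100A8, 0.435 to 27.9, and of ELANE, 0.774 to 293, included 1, and that of S100A12 was 1.01 to 4.35. MPO, the peroxidase of the granules, had 1 read in pig 1 and was listed at 0 in pig 2, and S100A9 was listed at 0 in both. LTF is also made by neutrophils and LYZ by neutrophils and macrophages, and the part of these cells in their values was not tested. IFNG, which the trophectoderm of the pig secretes around attachment, was at 681.6 RPKM in pig 1 and 89.1 RPKM in pig 2. Of the other trophectoderm markers, TFAP2C was at 17.5 and 14.1 RPKM, and GATA3 and ELF5 were listed at 0. CYP19A1 was listed at 0 in pig 1 and was at 2.05 RPKM in pig 2, from 3 reads. All 6 skeletal muscle markers with a mean of at least 1 RPKM were higher in pig 1, with a summed level over the 7 markers of 460.8 and 14.9 RPKM. Of the 4 stromal markers with a mean of at least 1 RPKM, 3 were higher in pig 2 and 1 was lower, with a median log2 ratio of 0.36. The summed level over the 5 listed stromal markers went the other way, from 2806 to 2432 RPKM, and most of it was LUM, a matrix proteoglycan, at 2122 and 1224 RPKM. THY1, a surface protein of fibroblasts, was at 452.4 and 910.2 RPKM, a log2 ratio of 1.01 that was 0.98 when scaled by the upper quartile and 0.92 by the median ratio. The 3 endothelial markers summed to 6408 and 6074 RPKM. The part of these differences in the members' values was not tested.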

How the data were processed

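RPKM values of 2 endometrium libraries of Yorkshire pigs (day 18 of pregnancy) were used. The authors counted reads with HTSeq, normalized them to RPKM and deposited 1 column per library. The aligner, build, lengths and filters are not given in the sources used here. Version numbers were ignored when accessions were matched to the RefSeq annotation of Sscrofa11.1, and 42.0% of mRNA rows matched. No coordinates or sequences were used. Rows of a symbol were summed. Reads were recovered as the smallest whole numbers at lengths up to 20000 nt, and whole reads were found for 100% of the 25584 transcripts above 0. In data simulated from 20093 mRNA rows at the smallest lengths found here, 100% of these lengths came back exact or as a divisor and 86.3% exact. The simulation does not show how often the lengths used by the authors were found. True reads are those given or whole multiples of them. The reads given sum to 90.2% of the total in pig 1 and 90.3% in pig 2, which leaves little room for larger multiples across all transcripts together. The members held only 0.188% of the library reads in pig 1 and 0.339% in pig 2. This sum therefore sets no close limit on the multiple of any given member or of a gene with few reads. Where a true count is larger, the interval is too wide. Amplified reads make intervals too narrow, so the intervals cannot be taken as cautious. No count model was fitted and no p-value computed, since there is 1 condition.

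Ratios are on the log2(RPKM + 1) scale or, with intervals, plain ratios. Genes entered counts with a mean of at least 1 RPKM. The members and lists were chosen with earlier results of these data known. By rule the text names all members, the 3 highest genes of a list, genes of at least 5 RPKM differing at least 2-fold, and the members' partners. Some genes of these lists are not reported here. Other genes were picked once their values were known, among them SOX17, FOXA1, KRT8, the ferritins and the remaining cell markers. Alternatives were other pseudocounts, filters, scalings, row choices, accession matching and each replicate left out. Values were computed with Python 3.11.15, pandas 2.3.3, numpy 2.4.6 and scipy 1.17.1 and drawn with matplotlib 3.10.9.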

Additional observations from a re-analysis of the deposited data

How the results depend on the processing

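No paired analysis was possible because both libraries are of 1 condition. CLU held 56.6% of the members' RPKM in the mean of both pigs, 50.3% in recovered reads, 68.9% with the version number required to match and 68.9% with TF taken without the row of synonym PICA, and from 52.2% to 61.0% with each replicate left out. The median level of the 9 members, 294.5 RPKM, was 68.9 with the values of a library made to sum to 1000000, which lowers every level, 19.6 with the version number required, which leaves out LTF, FOXA2 and the TF row above 0, and 19.6 without that row alone. The version match for CLU and each setting without PICA were added after seeing the data. The 1 member that differed at least 2-fold became 2, with FOXA2 added, when no filter was combined with a pseudocount of 0.01, also added later. It was 1 under the other 7 settings tried. The 5 members with an interval above 1 were 5 in the alternatives of a 99% interval and of centring on the median ratio, and 4 without the PICA row. The 8 members higher in pig 2 were 7 when scaled by the median ratio, where LTF was level, a shift of 0.09 on the log2 scale. No log2 ratio of a member changed direction in 36 values, of which 3 moved outside their intervals. A pseudocount cannot turn a direction, and SPP1 was at 0 throughout, so many of these directions were fixed in advance. The scalings shift a log2 ratio by at most 0.03 for the upper quartile and 0.09 for the median ratio. An SD from 2 pigs is imprecise, and 3 reads limit LTF and FOXA2. WFDC2 and THY1 were under 2-fold with either scaling, also a check chosen after seeing the data. Of the 12 other lists, 8 had the same counts in each direction under both scalings, a check chosen after seeing the data.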

Other observations

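UABP-2, a uteroferrin-associated basic protein of the serpin family that binds uteroferrin in histotroph, was outside the lists and was looked up after the values of ACP5 had been seen. Its row was at 1021 RPKM in pig 1 and 1220 RPKM in pig 2, from 2120 and 2381 reads. The mean was 1120 ± 140.2 RPKM (SD, n = 2), above that of ACP5 in both pigs. The ratio of pig 2 to pig 1 was 1.19 (1.13 to 1.27), and that of ACP5 was 1.53 (1.32 to 1.78), so the intervals of these genes did not overlap. In pig 1 UABP-2 was at percentile 92.4 and in pig 2 at percentile 93.6 of the genes with a mean of at least 1 RPKM.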
